A study of Mus musculus with 6 samples.

Results

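The interferon-induced antiviral effectors described here are 10 genes chosen by name: Ifit1, Ifit2, Ifit3, Ifit3b, Isg15, Rsad2 (viperin), Cmpk2, Ifi44, Ifitm3 and Bst2 (tetherin). They are 10 of the 47729 genes counted in 6 RNA-seq libraries from immortalized bone marrow-derived macrophages (BMMs), and all 10 passed the filter on low counts that left 17406 genes to test. The BMMs came from wild-type (WT) and Aif1-/- mice, with 3 libraries per genotype, and the comparison asks how loss of allograft inflammatory factor 1 (AIF1), a calcium-binding protein of macrophages, changed their transcripts. Both groups were C57BL/6J, taken from the femur and tibia of male mice at 8 weeks of age, transformed with SV40 large T antigen, grown in 120 ng/ml CSF-1 and used at passages 3 to 5. The Aif1-/- mice lacked the gene in every cell, and no interferon, virus or other stimulus is described for either group. The BMMs are described as generated from 3 independent animals per genotype, though the sample labels do not tie a library to an animal.

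Type I interferons bind a receptor made of IFNAR1 and IFNAR2, and the kinases JAK1 and TYK2 then activate a transcription factor complex that holds STAT2 and IRF9 and binds interferon-stimulated response elements in promoters. The genes it turns on include the effectors described here, which act at separate steps of a viral life cycle: entry, translation of viral RNA, genome copying and release. Macrophages keep a low tonic level of this programme without infection.

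The libraries held between 17707986 and 29314253 reads assigned to genes. Mapped reads assigned to no gene made up 25.54% (WT replicate 3) to 40.36% (WT replicate 2). Counting went by exon and strand, so this class can include reads in introns or on the opposite strand of a gene. Aif1 itself had 220, 157 and 239 reads in the WT libraries and 4, 4 and 1 in the Aif1-/- libraries, and its paralog Aif1l had 3 or fewer reads in every library. All 8 macrophage markers were expressed; 6 were higher in Aif1-/- BMMs (among them Csf1r, log2 fold change 0.48, and Mertk, 0.82), Cd14 was lower (-0.40) and Cd68 was not called. The calls of Fcgr1 (0.41) and Cd14 were lost without WT replicate 1 or without any Aif1-/- library. Of 6 platelet markers, 3 of the 5 tested were higher in Aif1-/- BMMs: Pf4 (0.97), Treml1 (1.94) and Ppbp (4.41, at most 3 reads in any WT library). Itga2b (-0.49) and Gp1ba (0.08) were not called, and Gp9 had at most 2 reads. Of all genes tested, 8.04% were called higher. The 6 markers summed to 41.4 to 46.4 CPM (reads scaled to a common library size) in WT and 86.8 to 91.4 CPM in Aif1-/- libraries. Pf4 had the most reads of the list in every library. Granulocyte, fibroblast and lymphocyte markers summed to at most 1.16 CPM in any library. The part of these markers in the results was not tested.

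All 10 effectors were lower in Aif1-/- than in WT BMMs by edgeR's quasi-likelihood test with Benjamini-Hochberg adjustment over all genes tested, at an adjusted p under 0.05. Of all 17406 genes, 10.5% were called lower and 8.04% higher. DESeq2 also called all 10 effectors lower, with 8.52% of the genes it tested called lower. In each of the 10 the highest Aif1-/- library lay below the lowest WT library, a pattern found in 19.1% of all genes tested. The median log2 fold change (Aif1-/- minus WT) was -1.36 over the effectors and -0.004 over all genes. Ifi44 stood apart, with 0.828% of its WT level left, while the other 9 genes kept 32.5% (Cmpk2) to 62.6% (Bst2). In bulk RNA, fewer cells expressing a gene and less of its RNA per cell cannot be told apart.

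**Figure D1:**
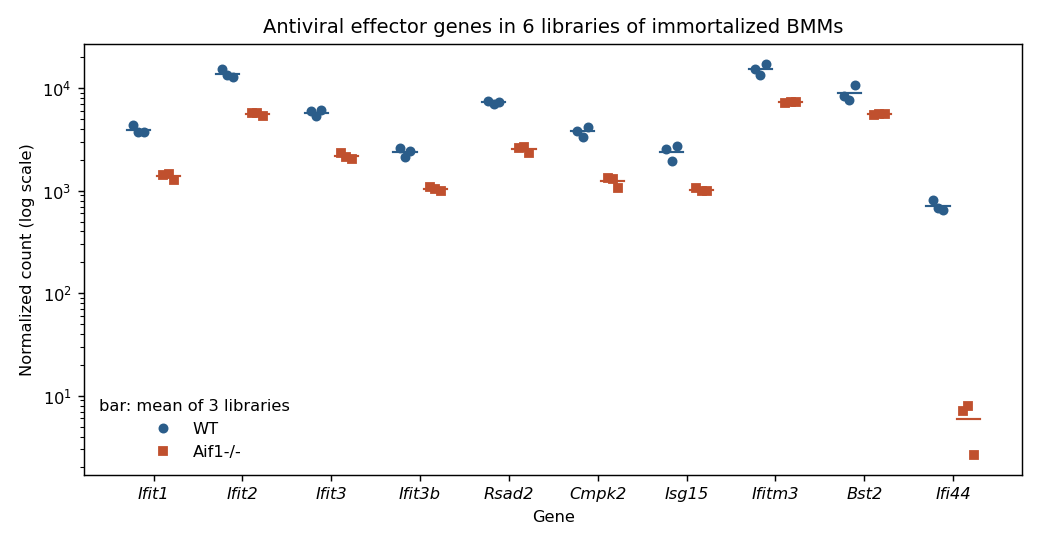
Normalized count (log axis) of the 10 effector genes in each library, with WT as blue circles, Aif1-/- as orange squares and a bar at the mean of 3 libraries. The 2 genotypes do not overlap for any gene, and Ifi44 falls from 649 to 813 in WT to 2.63 to 7.99 in Aif1-/-; heights are not comparable between genes, since counts are not divided by gene length.

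The IFIT proteins are cytoplasmic RNA-binding proteins built from tetratricopeptide repeats. Ifit1 recognises 5′ ends of RNA that lack the host cap methylation and blocks their translation. Its normalized counts (reads adjusted for library size) were 4331.5, 3767 and 3747 in the WT libraries and 1418, 1450.3 and 1282.5 in the Aif1-/- libraries. Mean Ifit1 was 3948 ± 332 in WT and 1384 ± 89.0 in Aif1-/- (SD, n = 3 each), and the fall of -1.51 on the log2 scale (SE 0.08) passed the edgeR test with an adjusted p of 8.08e-07. The 3 Aif1-/- libraries had a coefficient of variation of 6.43%, near the median of 6.32% over all genes tested in that genotype. The lowest WT library was well above them.

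Ifit2, a partner in IFIT complexes with its own antiviral and pro-apoptotic roles, had normalized counts of 15249, 13458 and 12942 in WT and 5672, 5696 and 5402.5 in Aif1-/- BMMs. Its log2 fold change was -1.31 (SE 0.08, adjusted p = 1.11e-06 by edgeR), leaving 40.3% of the WT level. Ifit3, which binds and stabilises Ifit1 in human cells, had 5927, 5313 and 6096.5 in WT and 2339, 2120.2 and 2053 in Aif1-/- libraries. That is a log2 fold change of -1.41 (SE 0.08, adjusted p = 9.39e-07 by edgeR), with no overlap between the genotypes.

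Ifit3b is a near copy of Ifit3 in the same cluster. It had normalized counts of 2601, 2150.0 and 2453 in WT and 1080.2, 1029.5 and 984 in Aif1-/- libraries, and a log2 fold change of -1.22 (SE 0.09, adjusted p = 4.39e-06 by edgeR). Of all 75-base windows in the exons of Ifit3, 41.11% occur also in Ifit3b, so reads from those windows have no unique position and the split between the copies is uncertain. Ifit1 shares 5.19% of its windows with Ifit1bl2, and Ifit2 shares none with any other gene.

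The upstream sequence of the effectors was searched because their shared induction runs through response elements at the promoter. RefSeq promoter windows (GRCm38.p6, 250 bases before to 50 after each start) were read on both strands for GAAA, any 2 bases and GAAA again, the core of the interferon-stimulated response element. It was found for 7 of the 10 effectors and for 3.99% of the 27025 genes with a window, and 2 or more matches occurred for 6 effectors and for 0.266% of all genes. The element was not particular to the effectors: 11 of 20 interferon ligand genes with a window had it, 6 of them with 2 or more matches. So did 4 of 10 relatives of the effectors, 3 of 10 other antiviral genes, 2 of 10 receptor and relay genes and 0 of 4 ISG15 conjugation genes. The stretches below are 5′ to 3′ on the gene's strand, with matches in capitals (a match that reads TTTC, 2 bases and TTTC lies on the other strand), and lie upstream of the start.
Ifit1 (chr19:34640760-34640838, plus strand): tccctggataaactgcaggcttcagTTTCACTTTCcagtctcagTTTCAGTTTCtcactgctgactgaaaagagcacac
Ifit3 (chr19:34583348-34583441, plus strand): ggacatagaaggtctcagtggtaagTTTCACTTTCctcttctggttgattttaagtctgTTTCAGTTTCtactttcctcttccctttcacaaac
Ifit3b (chr19:34607744-34607837, plus strand): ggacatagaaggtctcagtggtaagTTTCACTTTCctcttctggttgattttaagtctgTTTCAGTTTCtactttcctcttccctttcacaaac
Isg15 (chr4:156200850-156200921, minus strand): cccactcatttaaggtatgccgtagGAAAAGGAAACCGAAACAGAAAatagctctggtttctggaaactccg
Rsad2 (chr12:26456538-26456597, minus strand): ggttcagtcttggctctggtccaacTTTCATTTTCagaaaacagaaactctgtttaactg
Bst2 (chr8:71537562-71537627, minus strand): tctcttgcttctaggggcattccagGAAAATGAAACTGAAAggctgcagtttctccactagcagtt

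Ifit1 and Ifit3 carry the same pair of elements, TTTCACTTTC then TTTCAGTTTC, at different spacing, and the stretches of Ifit3 and Ifit3b are identical. Over their aligned promoter windows, 258 of 260 bases were the same (99.23%). The 3 matches of Isg15 overlap each other in a single run, as do the 2 of Bst2, whose first match also overlaps a match to TTCNNNGAA, the STAT dimer element. The Ifitm3 matches lie just past its start and are not shown. TTCNNNGAA occurred for 3 effectors (Ifit2, Ifitm3 and Bst2) and for 9.55% of all genes. Neither element was found for Cmpk2 or Ifi44, which says only that these letters are not in those windows. Ifi44 (log2 fold change -6.85), Cmpk2 (-1.62) and Ifit2 (-1.31) had no match to the response element core. The 7 effectors with a match ranged from -1.52 (Rsad2) to -0.68 (Bst2). Whether a match goes with the size of the fall was not tested.

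Viperin, the product of Rsad2, is a radical SAM enzyme that turns CTP into ddhCTP, a chain terminator of viral RNA polymerases, and Cmpk2 is a mitochondrial nucleotide kinase that supplies CTP. Their genes lie head to head on chromosome 12 (Rsad2, 26442746 to 26456452, minus strand; Cmpk2, 26469204 to 26479837, plus strand, GRCm38). Rsad2 had normalized counts of 7467, 7075 and 7277 in WT and 2620, 2666 and 2334.5 in Aif1-/- BMMs. Its log2 fold change was -1.52 (SE 0.07, adjusted p = 2.9e-07 by edgeR), and the WT libraries differed from each other by little (coefficient of variation 2.69%). Cmpk2 had 3805, 3351 and 4223 in WT and 1330.1, 1297 and 1065 in Aif1-/- libraries. That is a log2 fold change of -1.62 (SE 0.11, adjusted p = 3.11e-06 by edgeR), with 32.5% of the WT level left. The ratio of Rsad2 to Cmpk2 did not shift detectably: its log2 value was 0.95 ± 0.15 in WT and 1.05 ± 0.08 in Aif1-/- libraries (SD, n = 3 each; exact two-sided permutation p = 0.4, adjusted p = 0.4 over the 4 pairs compared).

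Isg15 (chromosome 4, 156199424 to 156200818, minus strand) encodes a ubiquitin-like protein that is joined to other proteins and is also secreted. It had normalized counts of 2533, 1945 and 2713 in WT and 1072, 985.5 and 995 in Aif1-/- BMMs. The log2 fold change was -1.23 (SE 0.12, adjusted p = 3.64e-05 by edgeR). The coefficient of variation over the WT libraries was 16.8%, where the median over all genes tested was 13.7%. The lowest WT library still lay well above every Aif1-/- library. The enzymes of ISG15 conjugation moved the same way, and all 5 tested were lower: Usp18, which removes ISG15 and restrains the receptor, at -1.25; Herc6, the mouse ligase, at -1.01; Uba7, the activating enzyme, at -0.71; Ube2l6, the conjugating enzyme, at -0.70; and Trim25, a ligase, at -0.50.

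Ifitm3 and Bst2 act at membranes: IFITM3 hinders fusion of viruses with endosomes, and BST2 holds budding virions at the cell surface. Ifitm3 (chromosome 7, 141009586 to 141010770, minus strand) had normalized counts of 15394, 13451 and 17363 in WT and 7114, 7299.6 and 7314 in Aif1-/- BMMs. It fell to 47.0% of the WT level (log2 fold change -1.09, SE 0.09, adjusted p = 1.37e-05 by edgeR), and the 3 Aif1-/- libraries were nearly alike. Bst2 (chromosome 8, 71534255 to 71537456, minus strand) had 8399, 7605 and 10757.5 in WT and 5518, 5609.6 and 5626 in Aif1-/- libraries, and fell to 62.6% (log2 fold change -0.68, 95% interval -0.93 to -0.43, adjusted p = 0.00179 by edgeR). Bst2 also marks plasmacytoid dendritic cells, and of 6 markers of those cells Ly6d and Pacsin1 were at 0 in every library, while Siglech had at most 1 read, Klk1 at most 5 and Ccr9 11 to 41. Tcf4, a transcription factor that other cells also express, had 2521 to 4032 reads. The list summed to 129.7 to 147.1 CPM in WT and 142.4 to 157.4 CPM in Aif1-/- libraries, and neither tested marker (Tcf4, 0.09; Ccr9, -0.27) was called.

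WT replicate 3, the library with the lowest share of reads assigned to no gene, was high for part of the group. It exceeded the mean of the other WT libraries by 0.43 on the log2 scale for Bst2, 0.28 for Isg15, 0.27 for Ifitm3, 0.24 for Cmpk2, 0.12 for Ifit3 and 0.05 for Ifit3b. The same difference was 0.0 for Rsad2, -0.11 for Ifit1, -0.15 for Ifit2 and -0.20 for Ifi44. Without that library the log2 fold change was -0.51 for Bst2, -1.13 for Isg15 and -0.99 for Ifitm3, and all 10 effectors were still called lower. With a covariate for the share of reads assigned to no gene, all 10 were called lower as well.

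Ifi44 (chromosome 3, 151730922 to 151749960, minus strand) encodes a cytoplasmic protein with a GTP-binding region that is induced by interferon and reported to restrain cell growth. It had 809, 795 and 769 reads in the WT libraries and 8, 6 and 2 in the Aif1-/- libraries, or 2373 against 16 in all. Its normalized count fell from 712 ± 88.4 to 5.90 ± 2.86 (SD, n = 3 each), which is 120.8-fold, with a log2 fold change of -6.85 (95% interval -7.37 to -6.33, adjusted p = 3.15e-08 by edgeR). The other effectors changed by 1.60-fold to 3.08-fold. Its relative Ifi44l had no reads in any library. Among all genes tested, 30 had a log2 fold change at or below that of Ifi44 and 77 were called at -5 or below, so near loss of a transcript was not particular to it.

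A stricter test, which asked whether the change exceeded a log2 fold change of 1 (edgeR glmTreat), called 6 of the 10 effectors lower: Ifit1, Ifit2, Ifit3, Rsad2, Cmpk2 and Ifi44. It called 2.27% of all genes lower. Ifit3b, Isg15, Ifitm3 and Bst2 did not pass. Before adjustment, 8 of the 10 effectors had a p under 0.05 by this test.

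Per exon length, the effectors spanned a wide range. Levels in RPKM (CPM per kilobase of exon, computed from the counts) were 967 ± 123 for Ifitm3 and 420.5 ± 77.3 for Bst2 in WT BMMs (SD, n = 3). Ifit2 (150.5), Ifit3 (141.0) and Isg15 (135.0) followed, and neighbours in that order overlapped between libraries. Rsad2 (71.4), Ifit1 (63.3), Ifit3b (51.1), Cmpk2 (38.8) and Ifi44 (4.95) came after, each below the previous gene in every library. In Aif1-/- BMMs Ifitm3 (454.7) and Bst2 (263) again led and Cmpk2 (12.6) and Ifi44 (0.041) again closed the order, while Isg15 (57.3) stood between Ifit2 (60.6) and Ifit3 (52.9), with overlap. Rsad2 (24.9), Ifit1 (22.2) and Ifit3b (21.9) overlapped their neighbours there too.

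**Figure D2:**
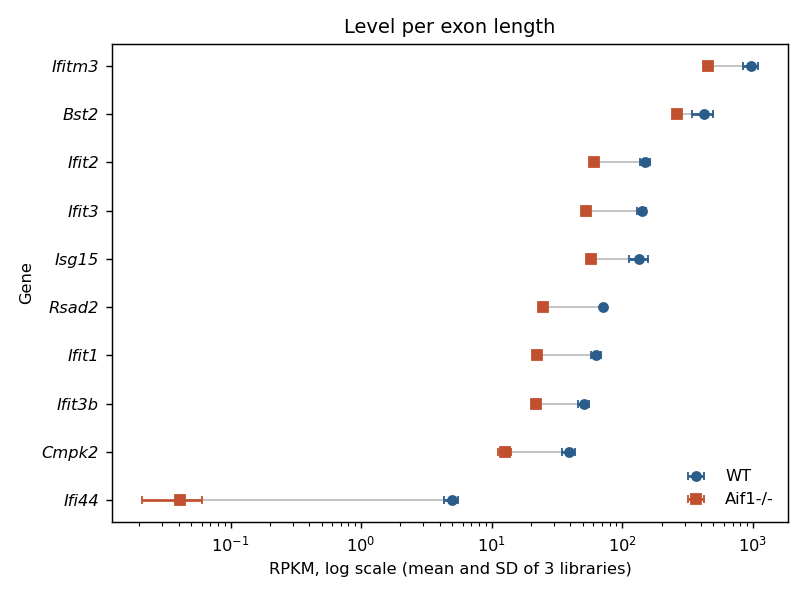
Level of each effector in RPKM (log axis, mean and SD of 3 libraries; WT blue, Aif1-/- orange). Ifitm3 leads at 967 in WT and 454.7 in Aif1-/-, and the Ifi44 pair, 4.95 and 0.041, lies farthest apart.

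Other pairs of effectors had ratios that differed by small amounts between genotypes, and 3 against 3 libraries cannot give an exact p below 0.1. The log2 ratio of Ifitm3 to Bst2 went from 0.80 ± 0.09 to 0.37 ± 0.01, a difference of -0.42. The ratios of Ifit3 to Ifit3b and of Ifit1 to Ifit2 each differed by -0.20 (exact two-sided permutation p = 0.1 and adjusted p = 0.133 for each of the 3 pairs). The genotypes did not overlap in any of these 3 ratios, which for 3 against 3 libraries is the same result as the exact p of 0.1. How often other gene pairs do so was not computed, and the Ifit3 pair shares reads.

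Upstream of the effectors, the interferon genes were barely expressed in either genotype. Of 21 ligand genes, 17 had no reads in any library, and Ifna13, Ifnk and Ifnz had at most 6. Ifnb1, the only one with enough reads to test, had 12, 21 and 4 reads in WT and 10, 2 and 9 in Aif1-/- libraries, which overlap (log2 fold change -0.48, 95% interval -1.97 to 1.01, adjusted p = 0.708 by edgeR). With so few and variable reads, changes of Ifnb1 within that interval cannot be told apart.

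Of 11 receptor and relay genes, 5 were lower, among them Stat2 (-1.06), Irf7, the transcription factor that amplifies interferon output (-1.06), Irf9 (-0.24) and Jak1 (-0.22). Stat2 had normalized counts of 6756, 7434 and 7838.5 in WT and 3422.5, 3561 and 3585 in Aif1-/- BMMs. The calls of Irf9 and Jak1 were lost when any Aif1-/- library was left out, and that of Jak1 also without WT replicate 1. The receptor chains had log2 fold changes of -0.05 (Ifnar1) and 0.00 (Ifnar2) and were not called. Socs1 had 38, 47 and 96 reads in WT and 28, 13 and 22 in Aif1-/- libraries. Its log2 fold change was -1.16, and it was not called (adjusted p = 0.0577 by edgeR). Tyk2 (-0.18), Irf3 (0.02) and Socs3 (-0.06) were not called either. The median of the list was -0.22.

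Of 10 relatives of the effectors, 7 could be tested and 4 were lower: Ifit1bl2 (-1.79), Ifitm6 (-1.75), Ifit1bl1 (-1.44) and Ifitm2 (-0.43, not called without Aif1-/- replicate 2). Cmpk1, the constitutive cytosolic kinase related in function to Cmpk2, was not called (0.16 on the log2 scale, adjusted p = 0.213 by edgeR), and Ifitm1 and Ifitm7 had too few reads to test, at most 21 in any library.

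Of 15 other interferon-induced antiviral genes, 14 were lower, with a median of -0.58. They included Isg20, an RNA exonuclease (-1.38), the GTPases Mx1 (-1.15) and Mx2 (-0.98), Xaf1 (-0.83), Parp14 (-0.70), Trim30a (-0.64), Ifi35 (-0.60) and Samhd1, a dNTP hydrolase (-0.58). Smaller falls were found for Rtp4 (-0.48), Helz2 (-0.47), Adar (-0.39), Apobec3 (-0.33), Eif2ak2 (-0.32) and Zc3hav1 (-0.31). Ifi27l2a had a log2 fold change of 0.41 and was not called (adjusted p = 0.0684 by edgeR). Eif2ak2 and Apobec3 were not called when any Aif1-/- library was left out, nor Zc3hav1 without Aif1-/- replicate 1 or 2, nor Eif2ak2 without WT replicate 1. Ifi27l2a was called higher by DESeq2, without a filter on low counts, with the covariate for reads assigned to no gene, and without WT replicate 3.

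**Figure D3:**
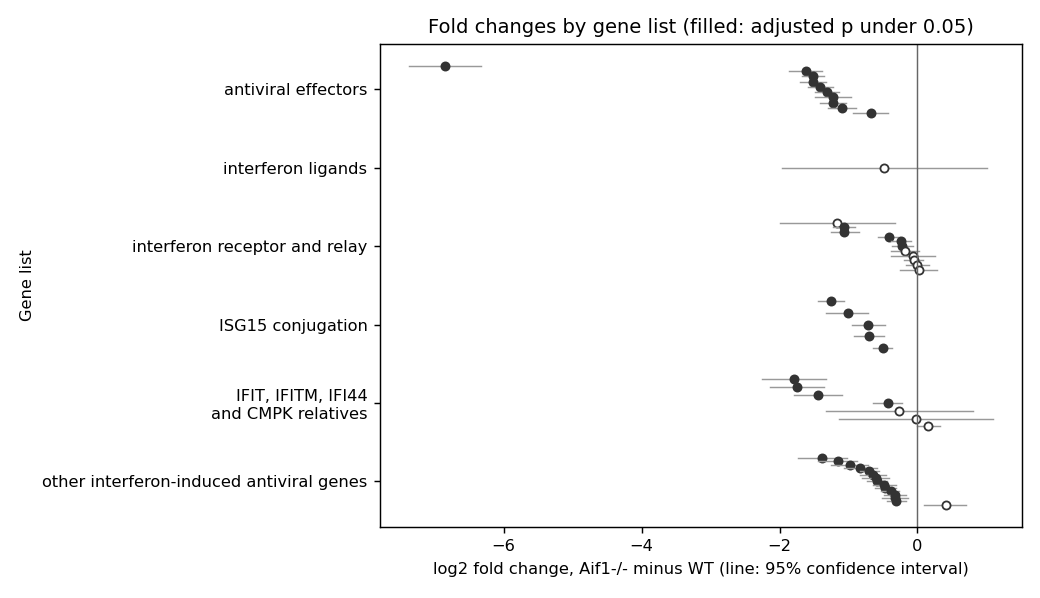
Log2 fold change (Aif1-/- minus WT) of the tested genes of the effector group and of the interferon lists, 1 point per gene. The effectors lie between -0.68 and -1.62 with Ifi44 at -6.85, below most of the receptor and relay genes, whose median is -0.22.

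The effectors lie at 6 loci, and none of the 10 overlaps another annotated gene. The Ifit cluster on the plus strand of chromosome 19 holds Ifit2 (34550694 to 34576419), Ifit3 (34583531 to 34588731), Ifit1bl1, Ifit3b (34607970 to 34613401), Ifit1bl2 and Ifit1 (34640871 to 34650009) in that order, and all 6 were lower in Aif1-/- BMMs. Outside the cluster, Fas, 222.9 kb before Ifit2, was lower (-1.06), while Pank1, Kif20b and Rpp30 on the other side were not called. Lipa, 23.2 kb before Ifit2, was not called either (0.07), and Ch25h, an interferon-induced cholesterol hydroxylase 75.5 kb before, was higher, with normalized counts of 188, 175 and 263 in WT and 1139, 1059 and 1172 in Aif1-/- libraries (log2 fold change 2.42).

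Beside Rsad2, 27.5 kb away, Rnf144a, a ubiquitin ligase gene, had 109, 158 and 167 reads in WT and 5, 1 and 2 in Aif1-/- libraries (log2 fold change -5.36, SE 0.35). Farther from Rsad2 and Cmpk2, Adi1 (2195.4 kb, -0.64) was lower and Id2 (1345.6 kb, 0.79) higher, while Kidins220, Rps7 and Rnaseh1 were not called. Around Isg15, 4 of the 6 nearest tested protein-coding genes were lower: AW011738 (-1.15), Agrn (-0.69), Perm1 (-0.63) and Plekhn1 (-0.62). The genes nearest Ifi44 on the far side, Dnajb4 (-0.30), Fubp1 (-0.04) and Nexn (0.17), were not called. Ttll7, 4746.9 kb before Ifi44, had 82, 64 and 82 reads in WT and 0 in each Aif1-/- library, which is at least 59.8-fold lower when the group is set to 3 counts in all, the upper 95% limit of an observed 0 for counting error only. Around Bst2, Nxnl1 (-1.35) and Ano8 (-0.42) were lower. Mvb12a, 5.5 kb from Bst2, had a log2 fold change of -0.02 and was not called, nor were Gtpbp3, Plvap and Tmem221. Around Ifitm3, Ifitm6 (-1.75), Pgghg (-0.60), Rnh1 (-0.47) and Ifitm2 (-0.43) were lower, while Ifitm5 and Ptdss2 were not called. Of 38 protein-coding neighbours at the 6 loci, 16 were lower (42.1%), 2 higher and 20 not called. Of all genes tested, of any type, 10.5% were lower and 8.04% higher. When any 1 Aif1-/- library was left out, 13 of the neighbours were lower. The 16 include the relatives Ifit1bl1, Ifit1bl2, Ifitm2 and Ifitm6, already counted above.

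**Figure D4:**
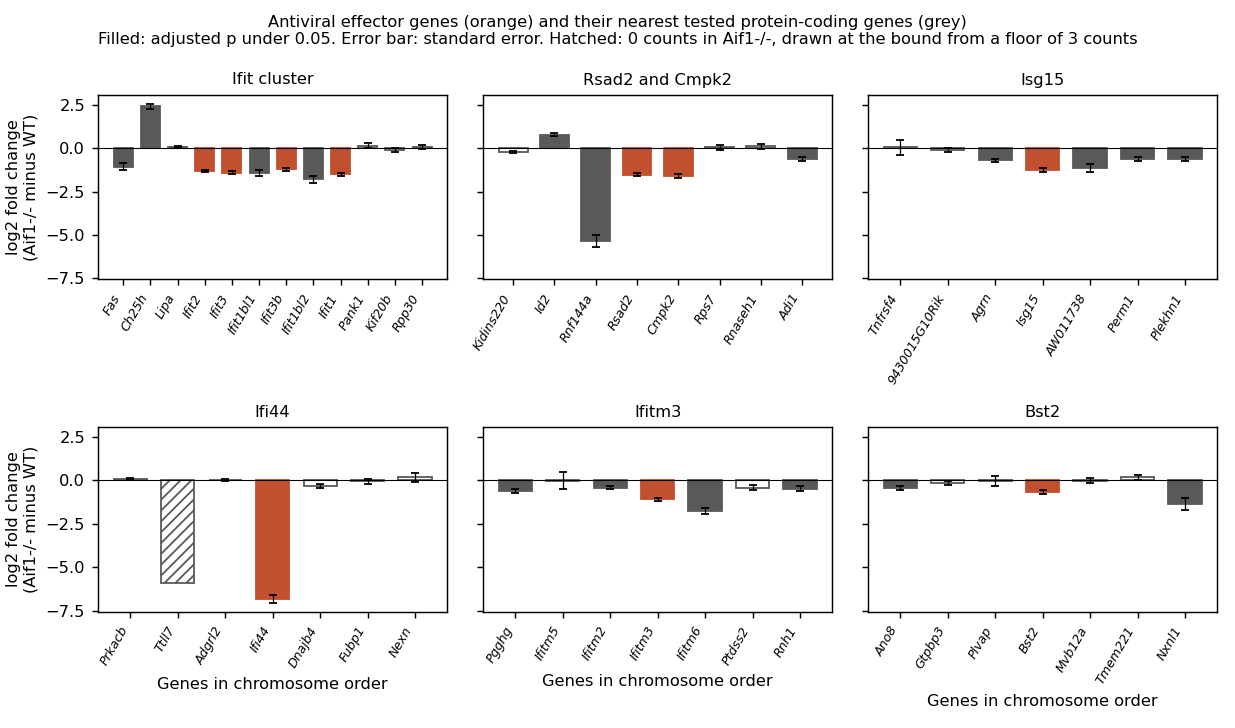
Log2 fold change (Aif1-/- minus WT) of each effector (orange) and its nearest tested protein-coding genes (grey) in chromosome order; filled bars passed the test, error bars are SE, and the hatched bar is a bound for a gene with 0 reads in Aif1-/-. Ch25h rises (2.42) beside the falling Ifit cluster, and Rnf144a (-5.36) falls further than Rsad2 and Cmpk2.

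Over the 6 libraries, the genes whose centred log2 CPM lay nearest to the mean profile of the 9 effectors other than Ifi44 were Gas7 (Euclidean distance 0.075), Usp18 (0.123), Slc25a13 (0.161), Gstm2-ps1 (0.165) and Cblb (0.209). Among the effectors, the distance to that mean ran from 0.121 (Ifit3b) to 0.81 (Bst2), and was 6.53 for Ifi44, which was not part of the mean. Gas7 had normalized counts of 8754, 8129 and 9292.5 in WT and 3678, 3609 and 3491 in Aif1-/- BMMs. The log2 fold changes of these 5 genes lay between -1.28 (Gas7) and -1.21 (Cblb). A centred profile over 2 genotypes mostly holds the step between them, so a small distance mainly means a similar fold change. Shared regulation was not tested.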

How the data were processed

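Bulk RNA-seq libraries of immortalized BMMs (3 WT, 3 Aif1-/-) were made by the authors from total RNA with a stranded, ribosomal RNA-depleting kit. Per the labels and the study's methods, reads were trimmed with Trim Galore (version 0.5), aligned to GRCm38 with TopHat2 (2.0.13) and counted per Ensembl gene with HTSeq (0.6.1p1) under default parameters, which count by strand. The deposited values are raw counts per gene, and the 5 summary rows naming no gene were left out of library sizes and tests.

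Counts were scaled by TMM and genes with low counts removed (filterByExpr), leaving 17406 of 47729. Genotype was tested with edgeR (4.0.16, R 4.3.3) by the quasi-likelihood test, adjusted by Benjamini-Hochberg, at a threshold of 0.05. DESeq2 (1.42.0) and limma-voom (3.58.1) were alternatives. So were another scaling, other filters, a replicate block, a covariate for the share of reads assigned to no gene, and leaving out each library. The code was tested on simulated data. Normalized counts are reads divided by TMM-scaled library size times the mean library size. RPKM uses merged exon lengths of GENCODE M21 (GRCm38). Named genes are all 10 effectors, members of the other lists that passed the threshold or had a few reads (the remaining low-count members of the marker lists are given as sums), Aif1 and the 5 genes nearest the effectors' mean profile (average log2 CPM of at least 2); locus neighbours and other uncalled genes were chosen after their values were seen. The values of 1 listed gene are not reported here. The effectors and all lists were chosen with earlier results of these data known.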

Additional observations from a re-analysis of the deposited data

How the results depend on the processing

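All 149 recomputed values of the 10 effectors kept their direction and their call over the alternatives that only change normalization, filter, tool, covariates or libraries, and Bst2 ranged from -0.77 to -0.51. The edgeR test against a log2 fold change of 1 called 6 effectors, 599 genes in all (3231 in the main analysis), 1 conjugation gene, 2 relatives and 5 locus neighbours. By that test 0 of the 11 receptor and relay genes (0 at an unadjusted p under 0.05) and 0 of the 15 other antiviral genes (2 at an unadjusted p under 0.05) passed, where DESeq2 and limma-voom, tested against no change, called 5 and at least 14. A covariate for the share of reads assigned to no gene raised the count to 5517 genes. Leaving out genes with a gene on the other strand gave 1857 genes, 2 receptor and relay genes, 3 conjugation genes and 8 other antiviral genes, since fewer were tested. Leaving out 1 library gave 2040 to 4889 genes, 4889 where WT replicate 3 was dropped and 2040, 2113 or 2140 where an Aif1-/- library (1, 2 or 3) was, and 3 to 6 receptor and relay genes. Same-numbered libraries did not deviate together (correlations 0.06, -0.075 and -0.086), so the numbers were not taken as pairs; a replicate block called 2872 genes, all 10 effectors and 3 receptor and relay genes. The cause of these shifts was not tested. With 3 libraries per genotype, ratios of effectors could not reach an exact p below 0.1.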
